A study of Mus musculus with 72 samples.

Results

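H3K27ac, acetylation of lysine 27 on histone H3, was mapped by CUT&RUN in activated mouse CD8 T cells, and the regions described here are the peaks that were listed without glutamine and not with vehicle. They were chosen by position alone: a peak of the glutamine-free H3K27ac list counted as a member when it shared no base with any peak of the vehicle H3K27ac list. Of the 6687 glutamine-free peaks, 1512 (22.6%) met this rule and 5175 (77.4%) shared at least 1 base with a vehicle peak. In the other direction, 4331 of the 9681 vehicle peaks (44.7%) had no glutamine-free counterpart. The 8 deposited lists of the series held 54819 peaks in all.

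The cells were CD8+ T cells from OT-I mice, which carry a transgenic receptor for SIINFEKL, a peptide of ovalbumin. Splenocytes were activated with 10 ng/mL of that peptide and 100 IU/mL of recombinant human IL-2. The groups used were vehicle in glutamine-containing medium, glutamine-free medium, CB-839 at 1 µM (an inhibitor of glutaminase) and DON at 1 µM (a glutamine analog that blocks glutamine-using enzymes), with each of these groups carrying peptide and IL-2. Fits of all 52 RNA libraries, run as an alternative, also held the 4 libraries of unstimulated cells, labelled with neither peptide nor IL-2, and the libraries at 4 h. A single vehicle group served all treatments, although the protocols name both DMSO and PBS as vehicles. H3K27ac and H3K27me3 were each mapped at 48 h in 2 samples per condition, which the authors merged into 1 list, and RNA was sequenced in 4 libraries per condition at 24 h and 48 h. The labels do not say whether these libraries came from separate cultures or animals, so the p-values measure the spread between samples, which may be technical. Because the vehicle list was longer than the glutamine-free list, and the read depth of the CUT&RUN samples is not given in the sources used here, a peak missing from a list was not called there and need not lack the mark.

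H3K27ac is laid down by the acetyltransferases CBP and p300 at active promoters and enhancers, and deacetylases remove it. When amino acids run short, uncharged tRNA activates the kinase GCN2, translation of the transcription factor ATF4 rises, and ATF4 paired with C/EBP proteins switches on genes for amino acid uptake, synthesis and tRNA charging. The DNA element these pairs bind joins a C/EBP half-site to an ATF half-site, and the promoter of Asns, the asparagine synthetase gene, is a textbook example.

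The promoters of Asns, Chac1 and Pck2, 3 amino acid response genes beside member peaks, are shown because each held a match to a C/EBP-ATF composite. Promoter entries were at hand for 23 of the 30 named genes. Slc7a3, another amino acid response gene beside a member, had none and could not be searched. Wars, also of that list and beside a member, was not read singly. Acot2 and Epsti1, a gene that rose and a gene that fell without glutamine, are shown for comparison. Each sequence is the 250 bases before the RefSeq start (GRCm38.p6, the mm10 assembly), read 5′ to 3′ on the gene's strand. Capitals mark matches on either strand to the composite (TGATGNAA) and to the CCAAT box bound by NF-Y (CCAAT), and no marked match overlapped another.
Asns, chr6:7693210-7693459, minus strand: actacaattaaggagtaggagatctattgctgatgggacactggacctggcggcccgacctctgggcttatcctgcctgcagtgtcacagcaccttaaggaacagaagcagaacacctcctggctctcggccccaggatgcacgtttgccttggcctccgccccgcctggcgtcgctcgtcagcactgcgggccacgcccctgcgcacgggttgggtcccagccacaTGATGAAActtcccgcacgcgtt
Chac1, chr2:119350992-119351241, plus strand: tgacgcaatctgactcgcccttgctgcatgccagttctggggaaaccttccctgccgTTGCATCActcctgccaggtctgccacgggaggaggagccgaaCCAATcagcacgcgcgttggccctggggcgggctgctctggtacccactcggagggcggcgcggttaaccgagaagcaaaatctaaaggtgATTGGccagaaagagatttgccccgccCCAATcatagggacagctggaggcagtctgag
Pck2, chr14:55540016-55540265, plus strand: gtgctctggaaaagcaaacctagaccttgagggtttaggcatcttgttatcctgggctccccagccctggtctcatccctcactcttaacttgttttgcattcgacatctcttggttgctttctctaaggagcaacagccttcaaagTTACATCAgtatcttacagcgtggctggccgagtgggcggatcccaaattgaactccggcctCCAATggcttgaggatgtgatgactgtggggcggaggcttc
Acot2, chr12:83987611-83987860, plus strand: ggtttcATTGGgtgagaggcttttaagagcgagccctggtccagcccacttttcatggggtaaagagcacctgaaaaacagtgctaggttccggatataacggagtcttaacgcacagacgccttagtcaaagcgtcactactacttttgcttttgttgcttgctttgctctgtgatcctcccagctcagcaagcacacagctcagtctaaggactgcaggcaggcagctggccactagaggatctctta
Epsti1, chr14:77903989-77904238, plus strand: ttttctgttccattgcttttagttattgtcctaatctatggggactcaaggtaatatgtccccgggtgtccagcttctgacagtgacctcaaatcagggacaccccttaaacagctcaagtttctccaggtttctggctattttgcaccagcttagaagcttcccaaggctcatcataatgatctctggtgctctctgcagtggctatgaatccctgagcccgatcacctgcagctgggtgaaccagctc
In Asns the composite read TGATGAAA and lay 23 to 16 bases before the start. In Chac1 it read TTGCATCA on the printed strand, 193 to 186 bases before the start, and Chac1 also had 3 CCAAT boxes. In Pck2 it read TTACATCA, 103 to 96 bases before the start. Acot2 had a CCAAT box and no composite, and Epsti1 had neither in this window. The Chac1, Pck2 and Acot2 promoter windows, counted with the 50 bases after the start, lay wholly inside a member peak, whereas 233 of the 300 bases did for Asns and 223 did for Epsti1.

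Over all 468 RefSeq promoter windows that lay wholly inside a member peak, 3.21% held the composite, against 2.03% of the 3601 windows inside shared peaks, 1.12% of the 2226 inside peaks listed only with vehicle and 3.45% of all 32851 windows. These shares are descriptions, and member promoters were richer in C and G (median 58.8%) than all promoters (52.4%) and close to shared ones (60.8%). CCAAT boxes were found in 35.9% of member promoters, 33.4% of shared ones and 33.8% of all. Matches to ISRE-like letters (GAAANNGAA), of the kind bound by interferon regulatory factors, were in 9.62% of member promoters, 6.61% of shared ones and 7.13% of all. Letters of the ETS family (CCGGAAG) were in 16.7% of member promoters against 6.91% of all, and 16.1% of shared promoters had them too. AP-1 letters (TGANTCA) were in 3.85% and RUNX letters (TGTGGTT) in 3.42% of member promoters, against 3.92% and 3.14% of shared ones.

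Medians of width and merged signal were lower in members than in the peaks listed in both conditions, and lower still in the peaks listed only with vehicle. Values of vehicle-only peaks come from the vehicle list, made from other samples, and their lowest merged signal was 7.75. A difference in signal scale between the lists was not tested. The median signal of the first replicate listed was 4.55 in vehicle-only peaks, as in members. The median width was 1680 bases for members (quartiles 1085 and 2523), 2456 bases for shared peaks and 1571 bases for vehicle-only peaks, and members covered 3.06 Mb against 17.2 Mb. The authors' merged signal, which equals the sum of the signals in the 2 replicates, had a median of 9.14 in members (8.16 to 20.2), 10.0 in shared peaks (8.15 to 38.6) and 8.89 in vehicle-only peaks. Within members the median signal was 4.55 in the first replicate listed and 4.54 in the second, and in 90 of the 1512 (5.95%) the replicates differed by over 2-fold. The global irreproducibility rate (IDR, the expected share of calls that replicates do not repeat) lay between 0.0209 and 0.0479 in members, with a median of 0.0269 against 0.0263 in shared peaks. These signals took part in choosing the members, since they decide what a list holds, and are given without a test.

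**Figure D1:**
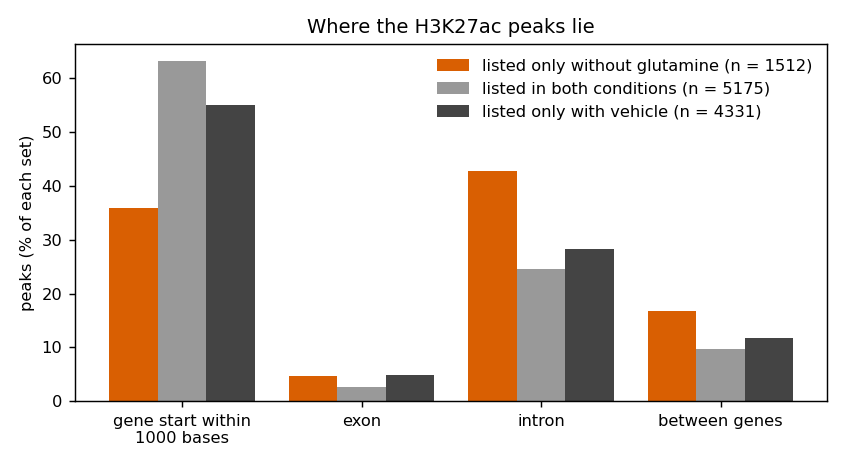
Share of peaks (%) by position for the 1512 H3K27ac peaks listed only without glutamine, the 5175 listed in both conditions and the 4331 listed only with vehicle. Members had a gene start within 1000 bases in 35.9% and lay in an intron in 42.7%.

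A gene start lay within 1000 bases of 543 members (35.9%), against 63.1% of shared peaks and 55% of peaks listed only with vehicle. Introns held 42.7% of members and 24.5% of shared peaks, intergenic sequence 16.7% and 9.76%, and exons 4.7% and 2.61%. The plot of peak positions shows that introns were the most frequent place of members and gene starts that of the other sets. Members were found on each chromosome, from 2 on Y to 118 on chromosomes 2 and 11. Another member lay within 10000 bases of 128 members (8.47%). In 100000 bases around Jak1, the gene of a cytokine receptor kinase, 4 members lay at chr4:101182015-101251257 with no shared and no vehicle peak between them. At Rgs3, a regulator of G protein signalling, 4 members lay at chr4:62557235-62649308 beside 1 shared peak. These 2 loci were picked after their values were seen.

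The median gap from a member to the nearest vehicle peak was 19299 bases (quartiles 6783 and 54718), 33 members (2.18%) had a vehicle peak within 1000 bases and 512 (33.9%) within 10000. Just inside the rule were intronic peaks at chr6:136932462-136936028, 2 bases from a vehicle peak and 5871 from the start of Arhgdib, and at chr13:24642176-24648367, 74 bases from one, and an intergenic peak at chr15:62818432-62820680 with a gap of 20 bases. Just outside were peaks at chr13:51787982-51790981 in an intron near Sema4d, sharing 11 bases with a vehicle peak, at chr6:15797178-15799472, sharing 94, and at chr11:120984528-120985158, sharing 97. Merged signals were 9.998, 11.242 and 10.093 for the 3 just inside and 10.497, 8.73 and 8.785 for the 3 just outside, in the order named.

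Of the 6 members with the largest merged signal, 2 lay at gene starts. An intronic peak at chr19:57092638-57102163, whose nearest start, 84410 bases away, was that of Afap1l2, had the largest merged signal (20.157), with 12.475 and 7.682 in the replicates. Next came the shared start of Taf6 and Cnpy4 at chr5:138186974-138187900 (20.118, from 10.909 and 9.209) and the start of Nop10 at chr2:112261685-112267828 (17.327). The latter drew its signal unevenly, 12.952 in the first replicate and 4.375 in the second. An intronic peak at chr18:89216394-89223523, 39427 bases from the start of Cd226, a costimulatory receptor gene, had 17.099. Intronic sequence 6336 bases from the start of Arpc2, an actin-nucleating complex gene (chr1:74242420-74252006), and intergenic sequence 32716 bases from that of Npl (chr1:153582761-153587119) had 16.953 and 16.72, with 4.289 and 4.354 in the second replicate.

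The H3K27ac lists under CB-839 and DON held 117 and 33 peaks, and 2 (0.132%) and 1 (0.0661%) members overlapped them. Of the peaks shared with vehicle, 120 (2.32%) and 33 (0.638%) did. The 2 members that overlapped CB-839 peaks lay at the starts of Ctr9, a subunit of the PAF1 elongation complex, and Vps35, a retromer subunit. H3K27me3, the repressive mark on the same residue, was listed at 6 members (0.397%) in any condition and at 15 shared peaks (0.29%), and covered at least 50% of 2 members. At the Asns start, chr6:7692141-7693392, 690 bases of the member overlapped an H3K27me3 peak of the CB-839 list and none overlapped an H3K27me3 peak with vehicle, DON or no glutamine. At the start of Crebbp, which encodes CBP, 736 bases of the member chr16:4212976-4214979 overlapped an H3K27me3 peak of the glutamine-free list. The member near Cbx8, a Polycomb gene, at chr11:119055760-119057131 lay wholly inside H3K27me3 peaks of the vehicle and CB-839 lists, with 347 and 360 bases covered in the glutamine-free and DON lists. No miRNA hairpin of the RefSeq table lay in a member, and 48 lay in shared peaks. Shared peaks covered 17.2 Mb and members 3.06 Mb, and some hairpins, such as Mir23a and Mir27a, lay in the same peak.

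RNA was measured in other libraries by another assay, so its counts took no part in choosing the peaks. A start within 1000 bases of a member was found for 707 genes, and 585 of them passed the filter on low counts at 48 h. Libraries of the series held 25.6 to 51 M counts. Of the 707 genes, 578 had their start inside a member, and 3 also had a vehicle peak within the window. Of the 585 genes 214 rose (36.6%) and 145 fell (24.8%) without glutamine by edgeR's quasi-likelihood test at a Benjamini-Hochberg adjusted p of 0.05, and 226 did not pass. Over all 16173 genes tested, 28% rose and 26.3% fell. Beside shared peaks 33.6% of 4045 genes rose and 24.9% fell, and beside peaks listed only with vehicle 26.1% of 2742 rose and 32.9% fell. Median log2 fold changes were 0.089 beside members, 0.061 beside shared peaks, −0.041 beside vehicle-only peaks and 0.022 over all genes. Expression differed too, with a median log2 CPM of 5.1, 5.49, 5.19 and 3.85 in the same order. Its part in the shares of genes called or with groups apart was not tested. The shares beside members and beside shared peaks were close to each other, and no difference between them was tested.

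Some differences passed the test and reached 2-fold. Beside members 58 of 585 genes (9.91%) rose by that much and 6 (1.03%) fell, against 6.69% and 4.62% of all genes and 5.04% and 1.29% beside shared peaks. CPM of the 4 glutamine-free and 4 vehicle libraries did not overlap for 297 of the 585 genes (50.8%), against 44.7% of all genes. When the genes were split into 4 by merged signal, 45 of 147 rose and 38 fell beside the weakest members (8.16 to 8.74), then 56 of 146 and 33, 59 and 40, and 54 and 34 beside the strongest (10.5 to 20.1). The rises were most numerous in the third of these sets, while the median log2 fold change was largest in the strongest. From the weakest to the strongest these medians were 0.019, 0.094, 0.092 and 0.174, and no difference between the sets was tested. Across the 585 genes Spearman's rho between merged signal and log2 fold change was 0.1, a description across genes, which are not independent replicates. With scaling by library totals only, the median of all genes moved from 0.022 to 0.123 and that of the genes beside members from 0.089 to 0.193, and 257 rose and 97 fell, 72.6% of calls upwards against 59.6%. Over all genes the same scaling moved that share from 51.6% to 63.5%.

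**Figure D2:**
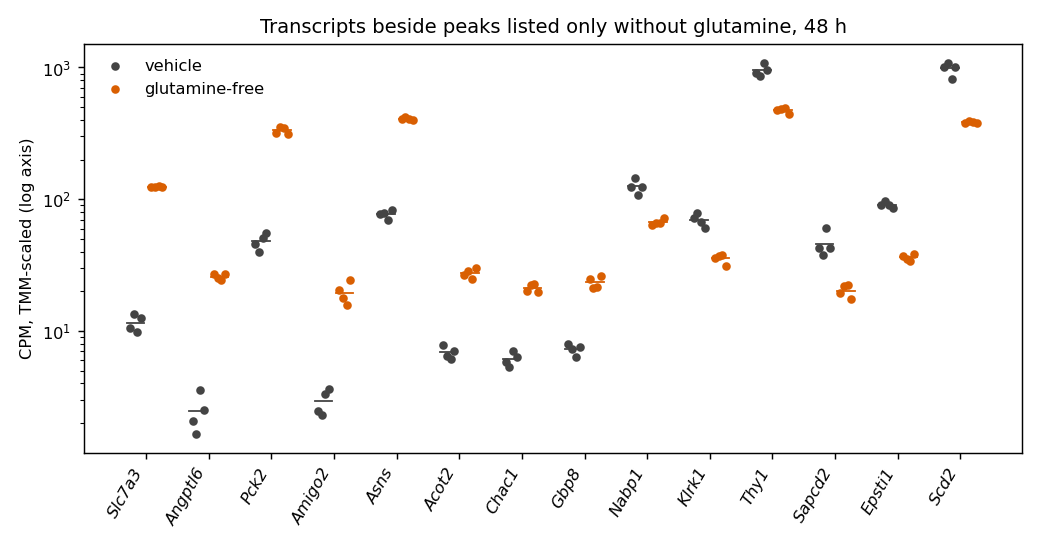
CPM (TMM-scaled, log axis) at 48 h in each of 4 vehicle and 4 glutamine-free libraries for the 14 named genes with the largest rises and falls beside member peaks. Points are libraries and lines are means. In each of these genes the groups do not overlap, which the rule that chose them required.

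The rule that chose the largest rises and falls required groups that do not overlap, so that trait of these genes is no separate result. Of the 8 named genes with the largest rises, 4 were amino acid response genes. Slc7a3, a cationic amino acid transporter gene, was at 10.6, 13.4, 9.82 and 12.6 CPM with vehicle and 125, 124, 127 and 124 CPM without glutamine. Every glutamine-free library lay above every vehicle library, with a log2 fold change of 3.43 ± 0.12 (SE, n = 4 per group, edgeR adjusted p = 2.52e-13). Its gene model (mm10 chromosome X, 101079210 to 101086020, minus strand) starts 561 bases from the member chrX:101084387-101085459, which lies inside the gene and has signals of 4.55 and 4.75. The nearest vehicle peak was 171208 bases away.

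Pck2, the mitochondrial phosphoenolpyruvate carboxykinase gene, rose from 46, 39.6, 51.2 and 55.3 CPM to 321, 355, 348 and 315 CPM. The groups were far apart, at a log2 fold change of 2.8 ± 0.12 (edgeR adjusted p = 2.09e-12). Its start at chromosome 14, 55540266, lay inside the member chr14:55539264-55541633, with signals of 7.06 and 5.46. Asns, whose enzyme makes asparagine with nitrogen from glutamine, had 77.2, 78.9, 69.7 and 83 CPM with vehicle and 408, 418, 407 and 402 CPM without glutamine. The glutamine-free libraries differed little from each other and all lay above vehicle, at 2.4 ± 0.09 (edgeR adjusted p = 4.95e-13). The Asns member had signals of 4.14 and 5.1 and lay 150426 bases from the nearest vehicle peak.

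Chac1, encoding an enzyme that breaks down glutathione, was at 5.81, 5.38, 7.04 and 6.4 CPM with vehicle and 20.3, 22.3, 22.8 and 19.7 CPM without glutamine. The lower group reached no higher than 7.04, and the log2 fold change was 1.79 ± 0.19 (edgeR adjusted p = 2.74e-07). Its start lay in chr2:119350269-119351441, with signals of 4.68 and 6.55. The fifth gene of this list beside a member, Wars, encoding the tryptophan tRNA synthetase, falls outside the naming rule and is given since it completes the count, with a rise of 0.28 ± 0.05 (edgeR adjusted p = 4.78e-05). Its member, chr12:108892479-108895086, had a merged signal of 8.19.

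**Figure D3:**
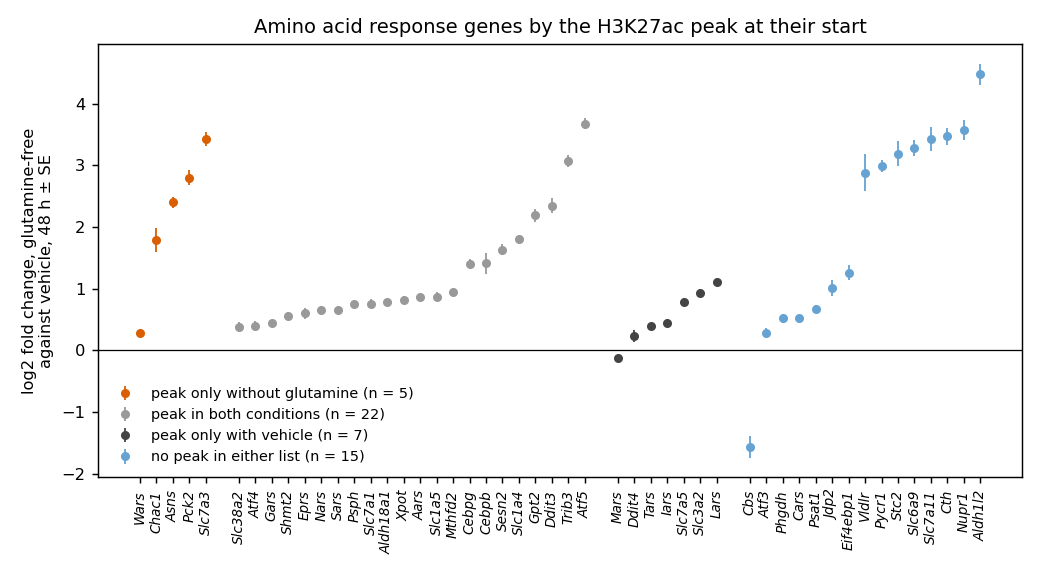
Log2 fold change ± SE, glutamine-free against vehicle at 48 h, of the 49 tested amino acid response genes, grouped by the H3K27ac peak within 1000 bases of their start. The 5 genes beside members lie between 0.28 and 3.43, and 15 genes with no peak in either list reach 4.48.

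The list of 51 amino acid response genes, of which 50 were in the table, rose in 46 of the 49 tested and fell in 2. Beside members 5 of 5 rose, with a median of 2.4, and beside shared peaks 22 of 22 rose, with a median of 0.84, the largest being Atf5 (3.68 ± 0.09) and Trib3 (3.07 ± 0.10). The 7 genes with a peak only with vehicle gave 5 rises and 1 fall and a median of 0.45. The other 15 tested had no H3K27ac peak near the start in either list, and 14 rose and 1 fell, with a median of 2.88. Among these were Aldh1l2 (4.48 ± 0.17) and Nupr1 (3.58 ± 0.16), rises as large as those beside members. For these genes neither list held a peak within 1000 bases of the gene model's start, and a part of peaks farther away was not tested. Atf4 itself had a shared peak and rose by 0.40 ± 0.07. Asns was also the 1 gene beside a member among 19 glutamine and glutamate metabolism genes, of which 7 rose and 6 fell.

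Other rises reached the same size outside that list. Angptl6, a secreted angiopoietin-like protein gene, went from 2.09, 1.65, 3.57 and 2.52 CPM to 26.9, 25.2, 24.3 and 27.2 CPM. The groups were apart at 3.42 ± 0.16 (edgeR adjusted p = 5.38e-12), and 16.8% of its exon bases also lie in another gene model, whose reads cannot be told apart without strand. Its member, chr9:20876629-20878954, lies 773 bases downstream of the start. Amigo2, an adhesion receptor gene, was at 2.49, 2.29, 3.31 and 3.62 CPM with vehicle and 20.6, 17.9, 15.7 and 24.2 CPM without glutamine, with a peak over its start at chr15:97246999-97248481. Its glutamine-free libraries spread more than those of Asns but stayed above vehicle, at 2.76 ± 0.14 (edgeR adjusted p = 2.07e-11).

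Acot2, a mitochondrial acyl-CoA thioesterase gene, had 7.88, 6.48, 6.16 and 7.1 CPM with vehicle and 26.7, 28.5, 24.7 and 30 CPM without glutamine. No library overlapped and the log2 fold change was 1.99 ± 0.10 (edgeR adjusted p = 2.35e-11), with the member chr12:83987043-83988387 over the start. Gbp8, of the interferon-inducible guanylate-binding proteins, was at 7.97, 7.25, 6.32 and 7.56 CPM and at 24.9, 21.1, 21.6 and 26 CPM, a rise of 1.68 ± 0.09 (edgeR adjusted p = 1.62e-11). Its member at chr5:105138462-105143807 lay 1374 bases from a vehicle peak, close to the 1000-base alternative of the rule. Parp8, an ADP-ribosyltransferase gene beside the strong member chr13:117023349-117026443 (7.95 and 6.56), rose by 1.49 ± 0.08, and Dglucy, encoding a D-glutamate cyclase, by 1.11 ± 0.09, beside chr12:100778988-100779932 (7.17 and 7.04).

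Transcripts also fell beside peaks that were listed only without glutamine. Scd2, a stearoyl-CoA desaturase gene, was at 1010, 1090, 825 and 1010 CPM with vehicle and 381, 392, 389 and 379 CPM without glutamine. It fell by 1.35 ± 0.07 on the log2 scale (edgeR adjusted p = 1.88e-11), with its start in chr19:44292651-44295685, where the signals were 4.06 and 7.11. Epsti1, an interferon-inducible gene, had 90.1, 96.2, 91.2 and 86.6 CPM and then 36.8, 35.1, 34.3 and 38.7 CPM. The groups were apart and it fell by 1.33 ± 0.05 (edgeR adjusted p = 9.31e-13) beside chr14:77904066-77909122.

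Thy1, the CD90 gene, was at 909, 862, 1090 and 953 CPM with vehicle and 480, 486, 490 and 443 CPM without glutamine, a log2 fold change of −1.01 ± 0.06 (edgeR adjusted p = 3.16e-10). The member chr9:44044345-44045656 lies inside Thy1, 961 bases from its start and 2379 from a vehicle peak, close to the edge of the window. Klrk1, encoding the activating receptor NKG2D, had 72.5, 78.8, 66.8 and 60.3 CPM and then 36.1, 36.9, 38 and 31.4 CPM, at −0.97 ± 0.08. Its vehicle libraries were all above its glutamine-free ones, and its member, chr6:129621681-129624274, lay 1276 bases from a vehicle peak.

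Sapcd2 fell by 1.18 ± 0.12, from 42.9, 37.7, 60.5 and 42.5 CPM to 19.3, 21.8, 22.3 and 17.5 CPM. Nabp1, a single-stranded DNA binding protein gene, fell by 0.91 ± 0.08, and its member chr1:51475991-51479806 lay 999 bases from a vehicle peak. In Sapcd2 and Thy1 vehicle library C was the highest of the 4, and in both the groups did not overlap.

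Transcripts beside the 6 strongest members with a nameable gene ranged from falls to rises and included values that did not pass. Taf6, a subunit of the general factor TFIID, was at 41, 37.7, 42.1 and 40.5 CPM with vehicle and 40.1, 38.6, 38.1 and 38.1 CPM without glutamine, a log2 difference of −0.06 ± 0.05 (edgeR adjusted p = 0.369). Its groups overlapped, and 26.5% of its exon bases lie in another gene model. Cnpy4, whose start lies under the same peak, fell by 0.20 ± 0.06, a call lost with library totals only (−0.10, edgeR adjusted p = 0.172) and with a replicate block in the 8 libraries compared (0.0543). Nop10, of the ribonucleoproteins that guide pseudouridylation, had 142, 143, 228 and 160 CPM and 176, 179, 182 and 135 CPM, a log2 difference of 0.0 ± 0.12 (edgeR adjusted p = 0.992). Vehicle library C stood above the others there, and without it Nop10 was higher by 0.18 with an edgeR adjusted p of 0.0398.

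Uap1, of the hexosamine pathway, rose by 0.28 ± 0.08 with overlapping libraries (26.4 to 36.2 CPM with vehicle, 35.6 to 41.1 CPM without glutamine), beside chr1:170173998-170175579. Gstt2, a glutathione transferase gene, showed 0.11 ± 0.13 (edgeR adjusted p = 0.514) and a vehicle range of 52.2 to 99.1 CPM. Library C was the highest there too, and leaving it out gave 0.33 with an edgeR adjusted p of 0.000623.

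Genes of the H3K27 acetylation machinery were represented by Crebbp and Hdac1. Crebbp had 22.3, 22, 15.2 and 22.8 CPM with vehicle and 29.2, 28.8, 31.1 and 31.4 CPM without glutamine, and rose by 0.55 ± 0.10 (edgeR adjusted p = 0.000118). Vehicle library C was the low one, and the groups did not overlap. Hdac1, a deacetylase gene with a member over its start at chr4:129541852-129543516, was at −0.10 ± 0.05 (edgeR adjusted p = 0.0842). It passed as lower with DESeq2 (−0.12, adjusted p = 0.0133), RLE scaling (edgeR adjusted p = 0.034) and without vehicle library D (edgeR adjusted p = 0.0336). Of the 23 genes of this list tested, 6 rose and 8 fell. No member lay beside the 10 genes tested for H3K27 methylation, of which 3 rose and 1 fell.

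Among transcription factor and receptor genes, Runx1 rose by 1.02 ± 0.15 from 1.88 to 2.22 CPM in the vehicle libraries to 3.85 to 4.28 CPM. The member chr16:92824303-92826100 lies 49 bases from its distal start, and no member overlapped the promoter window of its other RefSeq start. Of the 21 effector transcription factor genes tested, 6 rose and 4 fell. Rel, the c-Rel subunit of NF-κB, rose by 0.74 ± 0.12, with 27.1 to 44.2 CPM and 54.1 to 74.2 CPM in the groups, and lay under a broad member, chr11:23766102-23774108. It was the 1 gene beside a member among the 28 tested T cell activation genes, which rose in 12 and fell in 10. Cxcr5, the receptor for CXCL13, fell by 0.88 ± 0.15 from 2.09 to 2.56 CPM to 1.03 to 1.49 CPM, beside chr9:44562570-44563095, with an adjusted p of 0.148 in an edgeR fit of all 52 libraries. The naive and memory list it belongs to rose in 8 of 21 and fell in 8.

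Gbp3 rose by 0.37 ± 0.08 beside chr3:142559703-142561827, and of the 22 interferon-stimulated genes tested 10 rose and 5 fell. Its adjusted p was 0.239 in an edgeR fit of all 52 libraries. Ulk1, the kinase that starts autophagy, rose by 0.45 ± 0.08, and Ctsd, a lysosomal protease gene, by 0.21 ± 0.06 with overlapping libraries and 34.4% of its exon bases in another gene model. The Ctsd call was lost in edgeR fits of the 8 libraries compared (adjusted p = 0.0514), of these with a replicate block (0.0696) and of all 52 libraries (0.369). The autophagy and lysosome list rose in 8 of 19 and fell in 3. Dkc1, the pseudouridine synthase dyskerin, was at −0.18 ± 0.09 (edgeR adjusted p = 0.108) with vehicle values of 291 to 428 CPM and glutamine-free values of 315 to 335 CPM. Without vehicle library C it stood at −0.28 with an edgeR adjusted p of 0.00107. The ribosome biogenesis and MYC target list fell in 17 of 22 and rose in none. The p53 and apoptosis list rose in 13 of 24 and fell in 5.

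Several lists had no gene beside a member. Of 22 glycolysis and hypoxia genes 20 fell and none rose, of 19 cytotoxic granule and cytokine genes 9 fell and 4 rose, and among 14 inhibitory receptor genes 6 fell and 2 rose. The 6 markers of CD8 T cells summed to 1770 to 1890 CPM with vehicle and 1600 to 1630 CPM without glutamine, and Cd8a was at 615 to 634 and 485 to 509 CPM. Markers of other cells were low: the 3 tested of 8 B cell markers summed to 2.75 to 3.62 CPM with vehicle and 3.62 to 3.94 CPM without glutamine, and the 4 tested of 11 myeloid markers to 3.12 to 4 and 7.41 to 9.08 CPM. The 2 tested of 3 CD4 T cell markers summed to 3.91 to 5.6 CPM with vehicle and 28.8 to 35.2 CPM without glutamine, while Cd4 itself, Ms4a1, Itgam, Csf1r and Ncr1 were too low to be tested. The 2 tested of 5 erythroid markers summed to under 0.5 CPM in each library, and none of the 3 NK cell markers could be tested. None of these markers lay beside a member, and their part in the results was not tested. In such bulk samples fewer cells of a type and less RNA per cell cannot be told apart.

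The C/EBP-ATF composite was also read against the RNA. Of the 13 genes whose window lay wholly in a member and held the composite, 12 were tested, 7 rose (58.3%) and 2 fell (16.7%), with a median log2 fold change of 0.60. Composite promoters in shared peaks rose in 51.7% of 58 genes tested and fell in 17.2%, those in vehicle-only peaks in 23.8% and 9.52% of 21, and all composite promoters in 43.3% and 20.8% of 245. Besides Pck2 and Chac1 these were Calcrl (1.09 ± 0.18), Fbxo48 (1.05 ± 0.13), Tmem268 (0.93 ± 0.06), Ccl27a (0.63 ± 0.19) and Hax1 (0.57 ± 0.05), while Nol12 fell by 0.52 ± 0.09 and Lpin2 by 0.48 ± 0.07. Lin37 (0.21 ± 0.11, edgeR adjusted p = 0.108), Zfp473 (−0.13 ± 0.10, edgeR adjusted p = 0.308) and Arl2bp (edgeR adjusted p = 0.969) did not pass. These genes were singled out after their values were seen, and the count is a description.

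**Figure D4:**
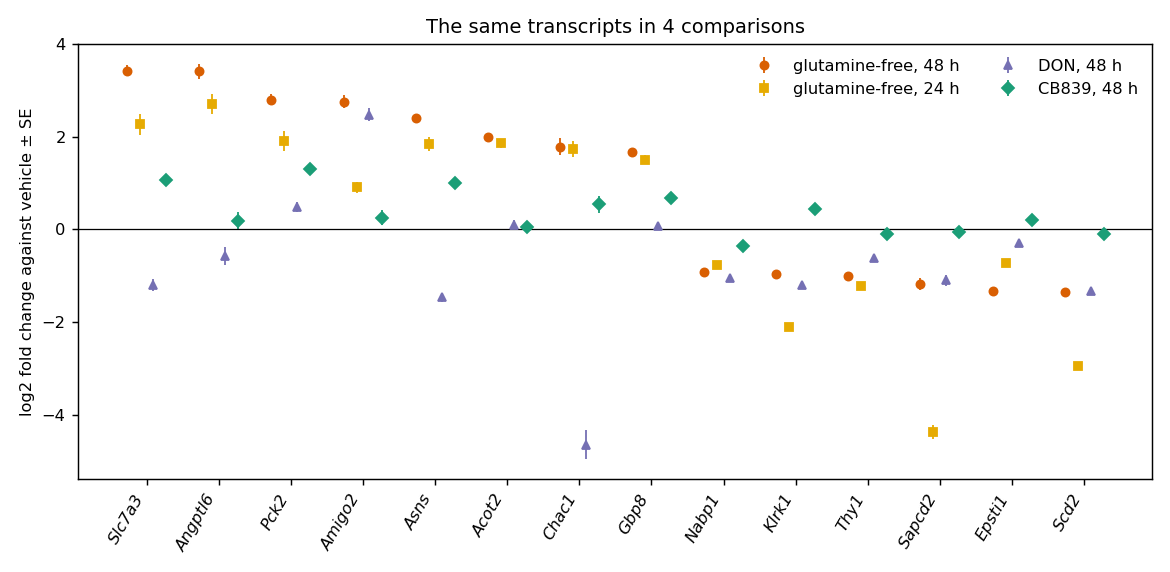
Log2 fold change ± SE against vehicle for the 14 named genes of largest change, without glutamine at 48 h and 24 h and with DON and CB-839 at 48 h. Asns, Slc7a3, Chac1 and Angptl6 lie above 0 without glutamine and below 0 with DON.

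The same genes were then read in the other comparisons, of which those at 48 h share the vehicle libraries. At 24 h without glutamine 195 of the 575 genes tested beside members rose and 165 fell, against 30% and 28.9% of all genes. With DON at 48 h 201 of 585 rose and 236 fell, against 35.6% and 35.6% of all genes, and with CB-839 62 rose and 43 fell, against 8.50% and 6.73%. Beside members the shares were 33.9% and 28.7% at 24 h, 34.4% and 40.3% with DON and 10.6% and 7.35% with CB-839. Falls with DON also outnumbered rises in the other sets. There 32.6% rose and 44.6% fell beside shared peaks, and 33.7% and 41.8% beside vehicle-only peaks. The CB-839 counts moved with the library left out. Without CB-839 library A 41 rose and 27 fell, without its library B 47 and 29, and without its library C 48 and 30. Without vehicle library A 50 rose and 33 fell, and without vehicle library C 89 and 68. The other omissions gave 59 to 62 rises and 37 to 46 falls. The shares over all genes in these fits are not given here, so whether these moves are particular to genes beside members was not tested. Median log2 fold changes beside members were 0.048 at 24 h, −0.061 with DON and −0.009 with CB-839.

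Of the amino acid response genes beside members, 4 of 5 fell with DON and Pck2 rose. Asns was at 23.3, 29.4, 31.3 and 27.8 CPM with DON, all below vehicle, and at 180, 138, 160 and 137 CPM with CB-839, all above it. Its log2 fold changes were −1.47 ± 0.09 with DON (edgeR adjusted p = 6.23e-11) and 1.0 ± 0.09 with CB-839, beside 2.4 without glutamine. Chac1 was at 0.0561, 0.444, 0.371 and 0.0889 CPM with DON, the lowest of its groups. It fell by 4.65 ± 0.31 there (edgeR adjusted p = 2.88e-10) and was at 0.54 ± 0.19 with CB-839 (edgeR adjusted p = 0.0655). Slc7a3 fell by 1.21 ± 0.13 with DON and rose by 1.07 ± 0.12 with CB-839. Pck2 rose in each, by 0.48 ± 0.11 with DON and 1.3 ± 0.11 with CB-839, and Wars fell by 0.67 ± 0.05 with DON.

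Outside that list, Amigo2 rose by 2.48 ± 0.14 with DON, near its value without glutamine, and was at 0.25 ± 0.16 with CB-839 (edgeR adjusted p = 0.323). Angptl6, which rose without glutamine, fell by 0.57 ± 0.19 with DON (edgeR adjusted p = 0.0122). Acot2 was at 0.10 ± 0.11 and 0.06 ± 0.11 with DON and CB-839 and passed in neither. Dglucy fell by 1.14 ± 0.10 with CB-839, against its rise without glutamine. Scd2 fell by 1.32 ± 0.07 with DON and was at −0.09 ± 0.07 with CB-839. Klrk1 fell by 1.20 ± 0.08 with DON and rose by 0.45 ± 0.08 with CB-839. Dkc1 and Crebbp, at −0.18 and 0.55 without glutamine, fell by 1.73 ± 0.09 and 0.82 ± 0.10 with DON.

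At 24 h Asns, Slc7a3 and Pck2 had already risen without glutamine, by 1.85 ± 0.15, 2.27 ± 0.23 and 1.91 ± 0.22, as had Angptl6 by 2.71 ± 0.22. Asns was at 99.5, 96.5, 109 and 67.5 CPM with vehicle at 24 h and 356, 323, 332 and 335 CPM without glutamine. Scd2 and Sapcd2 were at −2.94 ± 0.07 and −4.37 ± 0.15 at that time. Sapcd2 had 32.9, 29.2, 22.9 and 29.2 CPM with vehicle and 0.87, 1.34, 1.36 and 1.94 CPM without glutamine, so its 24 h groups were farther apart than its 48 h ones. Of the 214 genes that rose at 48 h beside members, 141 of 210 tested also rose at 24 h and 26 fell, and of the 145 that fell, 99 also fell at 24 h and 6 rose. Of the rises at 48 h 67.1% beside members and 64.5% over all genes were also called up at 24 h, and of the falls 68.3% and 66.1% were also called down. Peaks were analysed here at 48 h and at no other time.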

How the data were processed

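RNA was sequenced in 52 libraries and chromatin in 20 CUT&RUN samples. The authors deposited whole-number counts per gene, summed over exons of GENCODE M25 (mm10) by featureCounts 2.0.1 from read pairs, per the file headers. Libraries were stranded per the labels' protocols, but the counting command set no strand option. The deposited peak lists hold, for each condition and mark, the merged peaks of 2 samples at an IDR of 0.05, with the authors' score, signal and −log10 IDR per peak. Which sample is the first replicate is not given in the sources used here. The submitters' processing notes name Bowtie2, STAR, MACS2, FastQC and deepTools.

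Peaks were compared by shared bases. A gene's start was the 5′ end of its model in the count table, within 1000 bases of a peak. Genes were filtered by edgeR's filterByExpr, scaled by TMM and tested in edgeR 4.0.16 (R 4.3.3), the 16 libraries of a time sharing 1 fit, with Benjamini-Hochberg adjustment over all genes. The scripts were tested on simulated data. Between libraries of a group, the mean squared difference in counts was 2.96 to 157 times that expected from sampling alone, over 78 pairs. Spread between libraries was thus larger than counting noise, and intervals are not given.

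Members and lists were chosen with earlier results of these data known. Named genes are not predicted genes or clones. They were the 8 largest rises and 8 largest falls past an adjusted p of 0.05 whose mean log2 CPM was 1 or more and whose groups did not overlap. The genes beside the 6 strongest such members and up to 4 genes of each list were added. Of the 707 genes 12 had no symbol and are not named, and 3 genes that the rule chose are not reported here. The lists were the amino acid response, glutamine metabolism, H3K27 acetylation, H3K27 methylation, cytotoxic, T cell activation, naive and memory, inhibitory receptor, effector transcription factor, interferon, p53 and apoptosis, glycolysis and hypoxia, autophagy, ribosome biogenesis and markers of T, B, NK, myeloid and red cells. Promoter sequences are RefSeq's, GRCm38.p6. Alternatives were other scalings, filters, fits, windows, member rules and left-out libraries.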

Additional observations from a re-analysis of the deposited data

Results flagged for a closer look

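Each of the 30 named genes was checked for a library far from the other 3 of its group at 48 h, in 60 groups of 4. In 4 of them the gap to the nearest library was, as a share of the group's range, above Dixon's 95% critical value, and chance flags about 1 in 20 groups. Dglucy was at 44.9 CPM in glutamine-free library A, with the next at 38.9. Runx1 was at 3.85 CPM in glutamine-free library C against 4.21 in the next. Crebbp was low in vehicle library C, at 15.2 CPM with the next at 22. Nop10 was at 135 CPM in glutamine-free library D, with the next at 176.

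The effect of glutamine-free medium at 48 h was compared with that at 24 h in 1 edgeR fit for the 14 named genes with the largest rises and falls, and differed in 8. It was larger at 48 h in the rises, by 1.86 ± 0.19 for Amigo2 (edgeR adjusted p = 2.09e-09), 1.17 ± 0.27 for Slc7a3, 0.9 ± 0.26 for Pck2 and 0.56 ± 0.18 for Asns (edgeR adjusted p = 0.0207). Mean CPM, scaled within each time, went without glutamine from 189 at 24 h to 125 at 48 h for Slc7a3. It went from 383 to 335 for Pck2, 21.6 to 19.6 for Amigo2 and 336 to 409 for Asns. With vehicle it went from 39.1 to 11.6, 102 to 48, 11.5 to 2.93 and 93 to 77.2 in the same order. Among the falls the effect was higher at 48 h, that is less negative, by 3.19 ± 0.21 for Sapcd2, 1.6 ± 0.09 for Scd2 and 1.14 ± 0.11 for Klrk1. For Epsti1 it was more negative at 48 h, by −0.6 ± 0.09. Over all 593 genes beside members in that fit, 121 were higher and 72 lower at 48 h, against 2843 and 2182 of 17257 genes.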

How the results depend on the processing

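The number of peaks listed only without glutamine was 1479 to 2166 under the planned rules of overlap, a global IDR of at most 0.01 left no peak and so gave no value, and 114 remained at a global IDR of at most 0.025, chosen after seeing the data. With members not covered by 50% by a vehicle peak, 375 genes rose and 242 fell of 1018 tested at 48 h, and with the IDR of 0.025, 25 rose and 14 fell of 56 tested. RefSeq starts, also added after seeing the data, gave 169 rises and 132 falls of 460. With 1 library left out the counts were 198 to 221 rises and 131 to 157 falls at 48 h, 176 to 187 and 161 to 183 at 24 h, 194 to 215 and 229 to 250 with DON, and 41 to 89 and 27 to 68 with CB-839. In those fits for glutamine-free medium at 48 h 33.6% to 37.5% of the genes tested beside members rose. Over all genes 25.1% to 28.8% did. Scaling, DESeq2, the filter and the block in 16 libraries kept every count of genes beside members in the 4 comparisons within 1.5 times, as did the fits of 8 and of all 52 libraries, run for glutamine-free medium at 48 h alone. Members overlapping H3K27me3 numbered 6, and 2 with 50% of the peak covered. Replicate letters did not pair the libraries at 48 h (r = 0.06, −0.17, 0.24 and 0.02 for A to D between vehicle and glutamine-free medium). With the replicate block in the 16 libraries 210 of 585 genes beside members rose and 140 fell, against 4381 and 4133 of all 16173. In the 8 compared 178 of 562 rose and 110 fell, against 3618 and 3362 of 14838. The shares that rose were 35.9% against 27.1% and 31.7% against 24.4%. At 24 h r was 0.07, 0.09, 0.17 and 0.17 and every library correlated best with its own letter, a hint from the data and not the design. The block at 24 h gave 216 rises and 185 falls beside members, and the share over all genes in that fit is not given here. Of 480 values of named genes under alternatives, 467 kept their call, 7 lost it, 6 gained it and none reversed. Calls were lost by Gbp3, Ctsd, Cnpy4 and Cxcr5 and gained by Gstt2, Nop10, Hdac1 and Dkc1, and the cause was not tested.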
